A study of Yarrowia lipolytica with 6 samples.

Results

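Among the transcripts that StringTie assembled in the oil yeast Yarrowia lipolytica, 84 of 2087 stood at low levels in wild type cells and at least 8 times higher in cells lacking SNF1. StringTie is a program that builds transcripts from aligned reads, so it can list RNA outside the annotated genes; its entries carry the prefix MSTRG, a gene number and a transcript number. The 84 were chosen from CPM, a count scaled to a common library total. A transcript was kept when its mean over all 6 libraries was under 100 CPM, its mean in the deletion was at least 2 CPM, and that mean was at least 8 times the wild type mean after 0.1 CPM was added to both. The higher level in the deletion is thus the way in which the transcripts were chosen and not a result, and no test of that difference is given. The files hold 9235 features in all.

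The wild type strain CXAU/AI was compared with a ΔSnf1 strain made by homologous recombination, with 3 libraries of total RNA each, labelled as biological replicates. The labels do not say whether the deletion cultures came from 1 clone or several. Both strains were grown for 24 h at 30 °C in a medium with uracil and then held for 1 h with 2% n-decane, an alkane, and 1% uracil. There was no group without decane, so the levels describe cells under decane only. Library totals ranged from 32315239 to 38054417 counts, which makes a single count worth 0.0263 to 0.0309 CPM. Exactly 1 feature had at least 300 counts in each wild type library (3644, 3418 and 2546) and 0 in all deletion libraries. This feature was found by its counts and not by name, so it cannot by itself check the labels. The authors' deposited table lists Snf1 itself at a log2 fold change of -11.31.

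Snf1 is the yeast form of the AMP-activated protein kinase. In Saccharomyces cerevisiae it is active when glucose is scarce and acts on transcription factors that switch genes for other carbon sources on or off. Yeast genomes are also transcribed outside annotated genes, into stable unannotated RNAs, extended ends of genes and RNAs from the opposite strand, many of them at low levels. Whether the transcripts described here code for protein was not tested. The library kit keeps the strand, per the labels, but how strand was used in counting is not stated there, and sense and antisense reads cannot be told apart.

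The label "switched on" fitted only some of them. In wild type the means ran from 0.0182 to 9.38 CPM with a median of 0.520 CPM, and 54 of the 84 lay under 1 CPM. Still, 74 had at least 1 count in every wild type library, and none had 0 counts in all 3. In the deletion the means ran from 2.04 to 152 CPM with a median of 9.89 CPM. There, 43 transcripts were under 10 CPM, 30 between 10 and 50 CPM and 11 at 50 CPM or more. The ratio used by the rule ran from 8.13 to 211 with a median of 12.6, and 61 transcripts had a ratio under 16. Most were thus weak but counted in wild type, with a mean under 1 CPM. Their higher level in the deletion was set by the rule.

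**Figure D1:**
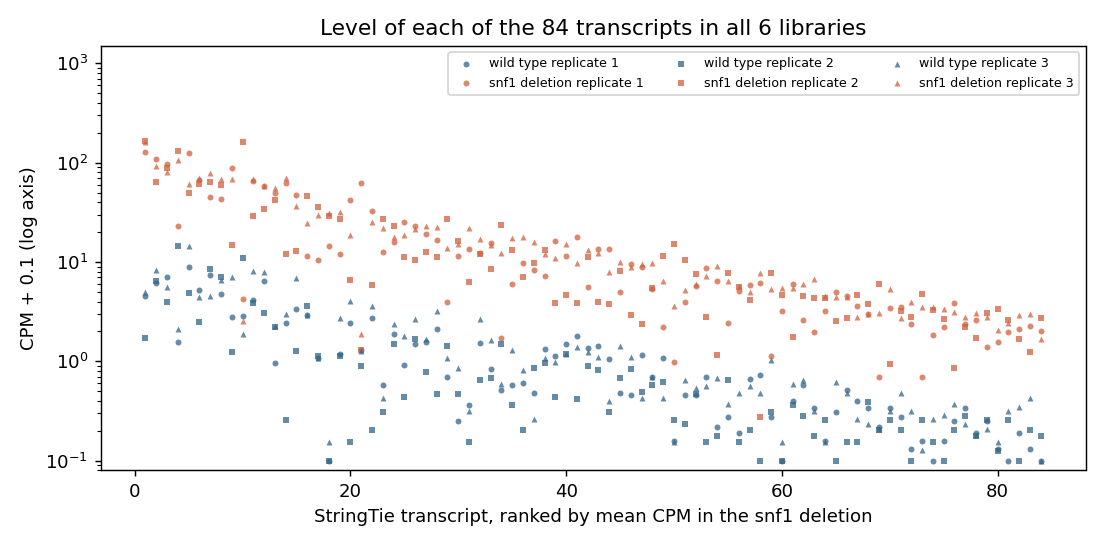
CPM plus 0.1 (log axis) of the 84 transcripts in all 6 libraries, ranked by their mean in the snf1 deletion; blue points are wild type and orange points the deletion. The orange points fall from 152 CPM to 2.04 CPM in the mean. In MSTRG.2858.1 and MSTRG.5645.1 some orange points lie within the range of the blue ones of the same transcript.

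Summed over the 84, wild type replicates 1, 2 and 3 held 110, 98.7 and 142 CPM, and the deletion replicates 1617, 1567 and 1790 CPM. As a share of all counts this was 0.0117 ± 0.00227% in wild type and 0.166 ± 0.0117% in the deletion (SD, n = 3 each). The 12 highest transcripts held 54.1% of the summed deletion mean. In bulk RNA, more cells holding a transcript and more of it per cell cannot be told apart.

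All deletion libraries lay above all wild type libraries for 82 of the 84, where the same held for 35.4% of all 7244 features tested and for 51.5% of the 1578 StringTie transcripts tested. In edgeR's quasi-likelihood test on the whole table, 83 of the 84 were called higher at an adjusted p under 0.05; over all features tested 18.3% were called higher, and over the StringTie transcripts 33.1%, with 9.95% called lower. Because the rule used the same libraries and the same contrast, these counts follow from the choice of members and nothing is read from them. The median log2 fold change was 3.54 over the 84, 0.71 over all StringTie transcripts tested and 0.04 over all features tested. Without scaling for composition (library size only) the median of all features moved by 0.36 on the log2 scale.

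The same rule mirrored, for transcripts at least 8 times lower in the deletion, found 13 StringTie transcripts, against 84. For annotated coding transcripts the rule found 57 of 6447, or 0.884%, against 4.02% of the StringTie transcripts. With TMM scaling (edgeR's correction for library composition) in place of library totals the rule found 57 StringTie transcripts, the mirrored rule 19 and the coding rows 41. No test of these differences was made. Above the limit of 100 CPM, 7 further StringTie transcripts met the other conditions.

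The highest transcript, MSTRG.5442.1 on chromosome E, stood at 4.46, 1.63 and 4.86 CPM in wild type replicates 1 to 3 and at 128, 166 and 163 CPM in the deletion replicates. Its means were 3.65 ± 1.76 and 152 ± 20.9 CPM, and every deletion value was far above every wild type value. MSTRG.6738.1 on chromosome F stood at 6.0, 6.33 and 8.16 CPM and at 110, 64.0 and 91.9 CPM. MSTRG.6671.1, also on chromosome F, had 6.89, 3.89 and 5.54 CPM in wild type and 95.9, 87.9 and 81.0 CPM in the deletion, with little spread among the deletion libraries. MSTRG.1172.1 on chromosome B was as even, at 5.08, 2.37 and 4.37 CPM against 66.4, 60.8 and 70.1 CPM.

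MSTRG.4213.1 on chromosome D had 7.33, 8.41 and 4.42 CPM in wild type and 45.2, 63.7 and 79.1 CPM in the deletion. MSTRG.2375.1 on chromosome C went from 4.70, 6.88 and 6.52 CPM to 42.9, 60.0 and 69.0 CPM. In both, the groups lay well apart and deletion replicate 1 was the lowest of its group. MSTRG.423.1 on chromosome A had 6.27, 2.94 and 7.80 CPM in wild type and 57.9, 34.3 and 57.6 CPM in the deletion. MSTRG.6686.1 on chromosome F had 4.08, 3.73 and 8.08 CPM and 64.8, 29.2 and 67.8 CPM. In these latter transcripts replicate 2 was the lowest of both groups.

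The remaining 4 of the 12 highest varied more between cultures. MSTRG.4931.1 on chromosome E stood at 1.48, 14.5 and 1.99 CPM in wild type and at 22.8, 131 and 107 CPM in the deletion, so wild type replicate 2 came near deletion replicate 1. MSTRG.6046.1 on chromosome F stood at 2.72, 1.13 and 6.93 CPM and at 87.9, 14.6 and 68.2 CPM. MSTRG.1930.2 on chromosome B stood at 8.84, 4.81 and 14.5 CPM and at 125, 49.4 and 61.6 CPM. MSTRG.5645.1, the tenth, overlapped between groups and is described with the transcripts that rest on 1 library.

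**Figure D2:**
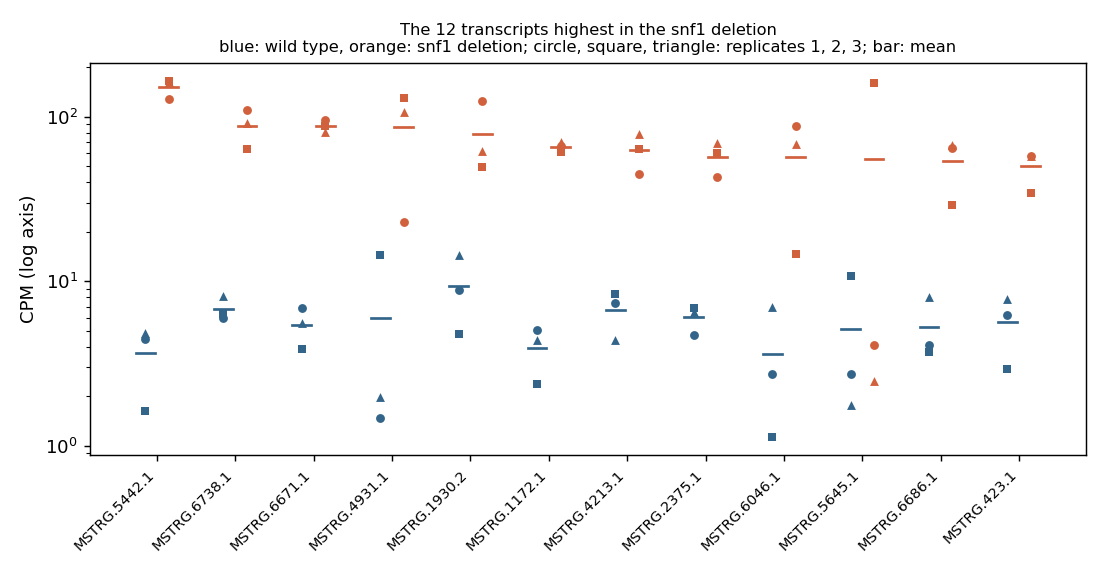
CPM (log axis) of the 12 transcripts with the highest mean in the snf1 deletion, with 1 point per library and bars for the means of 3 libraries. In 11 of them all orange points lie above all blue points; in MSTRG.5645.1 only deletion replicate 2, at 161 CPM, stands high.

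The 6 largest ratios belonged to weaker transcripts, apart from MSTRG.5442.1 with a ratio of 40.68. MSTRG.5601.1 on chromosome E had 0, 0 and 0.0546 CPM in wild type and 14.5, 29.0 and 31.1 CPM in the deletion, and its ratio under the rule was 211. MSTRG.3764.1 on chromosome D, with a ratio of 50.2, went from 0.266, 0.0526 and 0.218 CPM to 13.5, 6.21 and 22.0 CPM. MSTRG.5851.1 on chromosome E, at 47.0, went from 0.473, 0.210 and 0.327 CPM to 12.5, 26.9 and 21.9 CPM. In all 3 the wild type libraries were close to empty and the lowest deletion library was far above them.

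MSTRG.2648.1 on chromosome C had 0, 0 and 0.0546 CPM in wild type and 3.10, 4.54 and 5.38 CPM in the deletion. Wild type held 2 counts in all and the deletion 446; scaled by library totals the ratio was 233, and its exact binomial 95% interval ran from 64.0 to 1928. For MSTRG.6445.1 on chromosome F the counts were 3 and 213 and the ratio 74.1, between 25.0 and 362. For MSTRG.5601.1, with 2 and 2548 counts, the same interval ran from 368 to 10984. These intervals come from counts pooled over the libraries of each strain, and cover counting error only and not the spread between cultures. The transcripts were chosen for a high ratio, so nothing is read from the lower ends. The sixth, MSTRG.6665.1 on chromosome F, stood at 0.0591, 0.158 and 0.0546 CPM in wild type and at 0.890, 15.3 and 3.50 CPM in the deletion, so its size differed 17.2-fold within the deletion group.

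In 3 transcripts a single deletion library held over 70% of the CPM summed over all libraries. MSTRG.2545.1 on chromosome C stood at 62.7 CPM in deletion replicate 1 and at 1.21 and 1.76 CPM in the others, against 1.21, 0.788 and 1.17 CPM in wild type. Deletion replicate 1 held 91.1% of its CPM summed over all libraries, and its log2 fold change went from 4.11 to 0.12 without that library. MSTRG.5645.1 on chromosome E stood at 2.75, 10.8 and 1.77 CPM in wild type and at 4.10, 161 and 2.48 CPM in the deletion. Replicate 2 was the high one in both groups, and without deletion replicate 2 the log2 fold change went from 2.90 to -1.05. It was the 1 transcript of the 84 that edgeR did not call. For MSTRG.6665.1, deletion replicate 2 held 76.6% of the summed CPM, but the transcript met the rule without any 1 library. By contrast, MSTRG.2545.1 and MSTRG.5645.1 no longer met the rule without their high library. No other transcript had over 70% in 1 library. The next highest shares were 60.3% in MSTRG.604.1 and 59.1% in MSTRG.1876.1, so 1 library held most of the summed CPM in others too.

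MSTRG.2858.1 on chromosome C was the other one with overlap between groups. It had 0.621, 0 and 0.382 CPM in wild type and 6.01, 0.173 and 7.71 CPM in the deletion, so replicate 2 was close to empty in both strains. More widely, the highest deletion library was a median of 2.31 times the lowest over the 84. The factor was under 2 in 34 transcripts, at least 5 in 18 and at least 10 in 5. Of the 84, 53 still met the rule whichever library was left out, and 31 failed it without at least 1 of them.

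Within the groups, a member that was low in replicate 2 of one strain tended to be low in replicate 2 of the other. Deletion replicate 2 was the lowest of its group in 40 transcripts, and in 33 of these wild type replicate 2 was the lowest too. Deletion replicate 1 was the lowest in 39, of which 15 had their lowest wild type value in replicate 1, 16 in replicate 2 and 8 in replicate 3. Deletion replicate 3 was seldom the lowest (5 transcripts). Among the 1494 other StringTie transcripts tested, wild type replicate 2 was the lowest in 51.3% and deletion replicate 2 in 33.3%, against 61.9% and 47.6% of the 84.

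As a description across transcripts, the log2 ratio of replicate 2 to the mean of the other replicates was compared between strains (0.1 CPM added). Pearson's r was 0.60 over the 84, against 0.15 over the 1494 other StringTie transcripts. It was 0.37 and 0.29 for replicates 1 and 3, against 0.05 and 0.10. Without the 5 transcripts whose deletion values differed 10-fold or more, r was 0.56 for replicate 2, 0.32 for replicate 1 and 0.11 for replicate 3. The points share the same 6 libraries and many hold few wild type counts, so they are not independent. No difference between these values was tested, and the labels do not say that equal replicate numbers mark a shared day or batch.

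**Figure D3:**
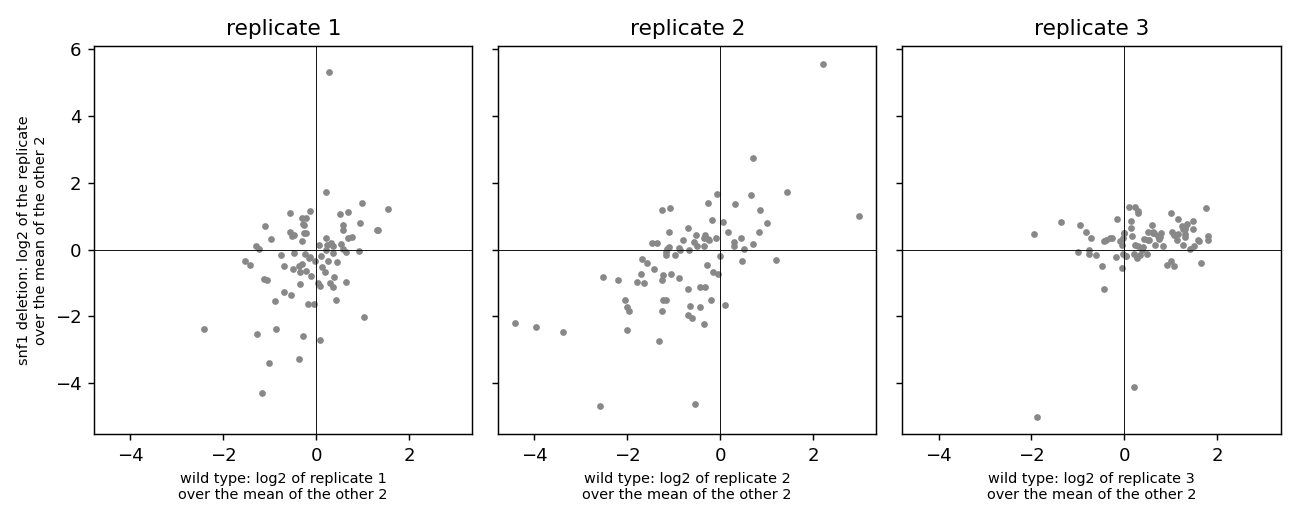
For each of the 84 transcripts, the log2 ratio of 1 replicate to the mean of the other 2 in wild type (horizontal axis) and in the snf1 deletion (vertical axis), 1 panel per replicate number. The points rise together most clearly in the panel of replicate 2, where r was 0.60.

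The authors also tested whole genes, which may hold several transcripts. Their deposited table, a DESeq2 comparison that lists 2840 genes past an adjusted p of 0.05, holds the MSTRG gene of 80 of the 84 transcripts. All 80 are listed as higher in the deletion, with log2 fold changes from 0.89 to 8.10 and a median of 3.18. Of the 1854 MSTRG genes that have a StringTie transcript in the counts, 27.0% are listed there as higher. The table rests on the same libraries as the rule, so nothing is read from this. MSTRG.1871.1, MSTRG.3482.1, MSTRG.4760.1 and MSTRG.5645.1 have no entry.

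Few of these genes carry a locus tag. Of the 80 listed in the authors' deposited table, 4 have a Gene ID, or 5.0%, where 2114 of its 2826 MSTRG genes, or 74.8%, have one. For the other 76 the Gene ID is blank (66) or written as 0 (10). The 2826 also include genes with no StringTie transcript in the counts, whereas the rule took only genes that have one. The 5.0% and 74.8% thus cover unlike sets, and nothing is read from their difference. Genes without a tag lean upward throughout that table, with 487 of 712, or 68.4%, listed as higher, against 880 of 2114, or 41.6%, of those with a tag. Neither share was tested against the other.

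The files give the 4 tagged genes no names, and the reference table at hand holds no entry under these tags, so their roles are not stated. MSTRG.6449.1 lies in the gene tagged YALI0_F09185g, listed at a log2 fold change of 2.57 in the authors' deposited table. The transcript had 1.48, 0.683 and 1.58 CPM in wild type and 19.0, 12.6 and 22.9 CPM in the deletion. MSTRG.1149.1 lies in YALI0_B07205g, listed at 3.04 in that table, and had 0.828, 0.342 and 1.72 CPM against 25.4, 11.04 and 18.6 CPM. In each, the lowest deletion library was several times the highest wild type library.

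MSTRG.151.1, in the gene tagged YALI0_A03355r (log2 fold change 3.15 in the authors' deposited table), was among the weakest, with 0.0887, 0 and 0.246 CPM in wild type and 2.02, 1.59 and 2.85 CPM in the deletion. MSTRG.4693.1, in the gene tagged YALI0_E07227r (3.82 in the authors' deposited table), had 0.296, 0.0526 and 0.164 CPM and 3.53, 4.54 and 2.72 CPM. In both, the groups were apart although wild type held few counts.

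Comparing each transcript with its gene separated the set. The transcript's mean normalised count (DESeq2 size factors from the deposited counts) was set against the authors' mean for the gene. For 70 of the 80 transcripts the row was at 20% or more of the gene mean, with a median ratio of 1.24 and quartiles of 1.21 and 1.29. In 66 of them the ratio was between 1 and 1.5, so the transcript's mean matched that of its gene up to a nearly constant scale. The 2 means were scaled separately. The feature given above for its lack of deletion counts stood at 1806 against 1443 for Snf1, but whether that feature is Snf1 was not tested. The authors' log2 fold changes for these 70 genes had a median of 3.30. MSTRG.4693.1 was at 43.7% of its gene, and MSTRG.2545.1 at 263%, where the authors' mean was 144 and that of the counts 378.

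In the other 10 the transcript's mean was low beside that of its gene, from 1.16% to 14.2% of the authors' mean. How reads shared between transcripts were counted is not stated, so these percentages are not shares of the gene's RNA. The deposited means of these genes ran from 853 to 78499 with a median of 6884. In the other 70 they ran from 27.0 to 1972 with a median of 131, and 5 of the 70 were above 853. The 10 with a low mean were MSTRG.1149.1, MSTRG.1930.2, MSTRG.1932.1, MSTRG.4026.1, MSTRG.4112.1, MSTRG.5927.1, MSTRG.6269.1, MSTRG.6449.1, MSTRG.6671.1 and MSTRG.7000.1. The median log2 fold change of the transcripts was 3.59 in these 10 and 3.59 in the 70, while the authors' gene fold changes in the 10 had a median of 1.98 and ran from 0.89 to 3.17. The split at 20% was chosen after the values were seen, and the difference was not tested. The transcript's edgeR fold change was above that listed for its gene in the authors' table in 10 of these 10 and in 67 of the 70; since the transcripts were chosen for a high ratio, nothing is read from these counts or from the transcripts' medians.

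For MSTRG.5927.1 the transcript's own log2 fold change was 3.29 (SE 0.57), with 0.236, 0.184 and 0.136 CPM in wild type and 2.26, 2.14 and 2.69 CPM in the deletion, and its gene is at 0.89 in the authors' deposited table. MSTRG.6269.1 had 0.0296, 0 and 0.218 CPM and then 2.29, 2.72 and 3.87 CPM, and its mean was 1.16% of the authors' mean for its gene. The table lists that gene at 1.61, against 4.77 (SE 0.83) for the transcript. MSTRG.7000.1 had 1.03, 0.342 and 0.873 CPM in wild type and 16.3, 3.79 and 10.95 CPM in the deletion, in a gene the authors' deposited table lists at 1.18. MSTRG.4026.1 and MSTRG.4112.1 had log2 fold changes of 3.81 and 3.21, in genes listed there at 1.82 and 1.16.

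**Figure D4:**
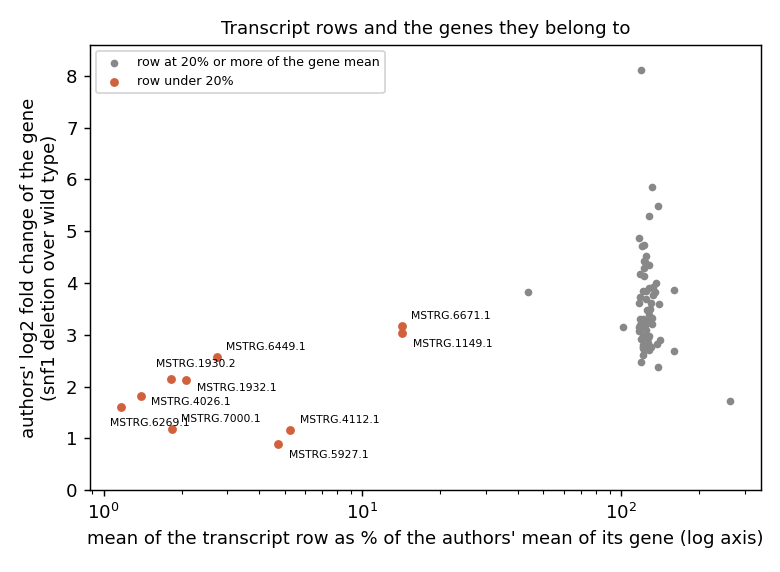
For the 80 transcripts whose gene is in the authors' deposited table, the transcript's mean as a percentage of the authors' gene mean (log axis) and the authors' log2 fold change of the gene. Of the points, 70 stand at 20% or more, most of them a little above 100%, and the 10 orange ones lie between 1.16% and 14.2% with gene values from 0.89 to 3.17.

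Other transcripts of the same MSTRG genes added almost nothing. Only 4 were listed: MSTRG.1149.2 and MSTRG.6671.2 had 0 counts in all libraries, MSTRG.1930.1 had 3 and MSTRG.7000.2 had 1. None had enough counts to be tested. Any remaining reads of the 10 genes whose transcript mean was under 20% were thus not under MSTRG names in the counts, and the files do not pair the RefSeq rows with MSTRG genes.

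MSTRG numbers gave the order along the chromosomes. In the authors' deposited table the rank correlation of the number with the locus tag was over 0.999 on each of chromosomes A to F, while that with the deposited start was between -0.0879 and 0.105; the numbers were used for order and no coordinates are given. By number, 4 of the 84 lay on chromosome A, 12 on B, 14 on C, 18 on D, 17 on E and 19 on F. That was 1.69% of the StringTie transcripts of chromosome A and 3.92% to 4.70% of those of the others. The set was thus found on all 6 chromosomes; differences between them were not tested.

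The genes next in number to the 84 were looked up in the authors' deposited table. Of the 163 distinct numbers directly before or after them on the same chromosome, 60, or 36.8%, are listed there as higher and 21, or 12.9%, as lower. Of the 3058 distinct numbers beside other StringTie genes, 550 (18%) are listed as higher and 630 (20.6%) as lower. None of these direct neighbours was itself 1 of the 84. From distance 2 on, some of the numbers counted belong to the 84 themselves. These are higher by the rule, which raises the shares given next for distances 2 to 4. Shares without them were not computed. Counted per transcript and side, so that a shared neighbour counts for each, the share listed as higher was 37.5% at distance 1, 24.4% at distances 2 and 3, 26.2% at distance 4, 16.7% at 5, 13.1% at 10 and 20.2% at 20. Around other StringTie genes it stayed between 18.1% and 19.5%, so the share did not fall evenly with distance and lay below that range at 5 and 10. The difference was not tested, and reads running from one gene into the next were not tested for either.

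**Figure D5:**
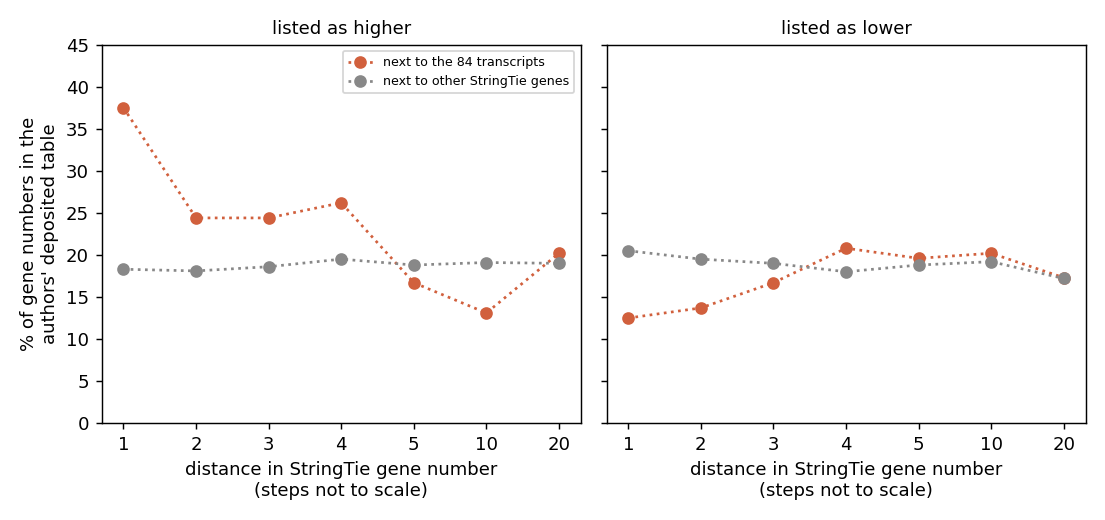
Percentage of MSTRG gene numbers at a given distance, counted per transcript and side, that the authors' deposited table lists as higher (left) or lower (right) in the snf1 deletion, around the 84 transcripts (orange) and around the other StringTie genes (grey). The orange curve starts at 37.5% higher and 12.5% lower at distance 1, against 18.3% and 20.5%, lies above the grey one for higher genes up to distance 4 and below it at 5 and 10. From distance 2 on, some of the numbers counted belong to the 84 themselves, which are higher by the rule.

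In all, 43 transcripts had a higher and no lower neighbour directly beside them, 10 a lower and no higher one, 8 had both and 23 had none in the table. Several of the tagged genes beside them are themselves far up in the authors' deposited table. MSTRG.1005.1 on chromosome B, at 0.857, 2.13 and 2.16 CPM in wild type and 49.3, 41.9 and 56.2 CPM in the deletion, precedes YALI0_B04202g, listed at 6.51. MSTRG.1172.1 precedes YALI0_B07898g, listed at 4.86. MSTRG.6671.1 precedes YALI0_F13959g, listed at 3.59 in that table, and MSTRG.5601.1 precedes YALI0_E27203g, listed at 3.57.

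Others lay beside or near genes that the authors list as lower. MSTRG.3482.1 on chromosome D, with 1.39, 1.08 and 1.09 CPM in wild type and 11.3, 4.60 and 15.2 CPM in the deletion, follows YALI0_D08690g, listed at -4.48 in the authors' deposited table. MSTRG.4715.1 on chromosome E, whose mean went from 1.07 ± 0.250 to 9.94 ± 3.94 CPM, is 2 numbers after ADH7, an alcohol dehydrogenase gene, which that table lists at -8.04. It is also 2 numbers before YALI0_E07832g, listed as higher (1.49). MSTRG.4931.1 stands 3 numbers from YALI0_E12331g on one side (-3.72) and 3 from YALI0_E12419g on the other (-7.04), but the untagged gene directly before it, MSTRG.4930, is listed as higher (1.45). MSTRG.2424.1 on chromosome C, at 0.344 ± 0.207 and 6.41 ± 3.44 CPM, is 4 numbers before ALK11, a cytochrome P450 gene of alkane use, listed at -6.72. On its other side, 5 numbers away, YALI0_C09904g is listed as higher (1.14). The lower neighbours were picked after their values were seen, for their size or their name.

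Members of the set seldom sat together. On the same chromosome, 4 pairs had numbers 2 apart and none were closer, and the one run of 3 was MSTRG.4756.1, MSTRG.4758.1 and MSTRG.4760.1 on chromosome E. MSTRG.4756.1 had 2.33, 0.0526 and 3.96 CPM in wild type and 42.1, 6.56 and 18.5 CPM in the deletion, with replicate 2 the lowest of both groups. MSTRG.4758.1 had 0.0591, 0 and 0.191 CPM and 2.13, 2.57 and 3.28 CPM. MSTRG.4760.1 had 0.236, 0.289 and 0.136 CPM and 2.88, 3.70 and 2.91 CPM. The run shared a direction, as the rule requires, while the order of the deletion replicates differed among all 3.

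A looser group on chromosome F, chosen after its values were seen, held MSTRG.6665.1, MSTRG.6668.1, MSTRG.6671.1 and MSTRG.6674.1. MSTRG.6668.1 had 0.502, 0.105 and 0.710 CPM in wild type and 9.68, 6.97 and 17.7 CPM in the deletion. MSTRG.6674.1 had 0.177, 0.552 and 0.273 CPM and 2.35, 7.72 and 6.37 CPM. Between them lies MSTRG.6670.3, which the limit of 100 CPM kept out, at 18.8, 7.83 and 16.5 CPM and 258, 250.3 and 180 CPM. The transcript MSTRG.6670.1 of the same gene rose less, from 20.2, 11.9 and 27.9 CPM to 45.9, 100.4 and 57.9 CPM. The authors' deposited table lists the gene at 1.68. Neighbours in this stretch thus stood at very different levels in the deletion.

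A pair lay at the end of the numbering of chromosome B, MSTRG.1928.1 and MSTRG.1930.2, which are 3 and 1 numbers before the last entry of that chromosome in the authors' deposited table. MSTRG.1932.1 is the first entry of chromosome C there. MSTRG.1928.1 had 0.591, 0.0526 and 0.464 CPM in wild type and 8.65, 2.72 and 7.15 CPM in the deletion, and MSTRG.1932.1 had 0.148, 0.158 and 0.109 CPM and 1.29, 2.95 and 2.72 CPM. The next nearest to a chromosome end by number, MSTRG.3091.1, was 22 numbers away.

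The borders of the rule are described by the transcripts nearest to them. The means over all libraries nearest below 100 CPM were 78.0 CPM for MSTRG.5442.1 and 47.7 CPM for MSTRG.6738.1, and those above were 121 CPM for MSTRG.1136.1 and 122 CPM for MSTRG.6670.3. The deletion means nearest to 2 CPM were 2.04 CPM for MSTRG.6445.1 and 2.07 CPM for MSTRG.5141.1 inside, and 1.61 CPM for MSTRG.3902.1 and 1.54 CPM for MSTRG.35.1 outside. The ratios nearest to 8 were 8.13 for MSTRG.3482.1 and 8.31 for MSTRG.1930.2 inside, and 7.97 for MSTRG.2822.2 and 7.93 for MSTRG.3295.1 outside. The limits of level thus cut through gaps, whereas the limit on the ratio cut between near neighbours.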

How the data were processed

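The authors deposited whole-number counts per transcript for each of 6 libraries (3 per strain) and a table of their own comparison of genes. The submitters' processing notes list DESeq2 (2.11.40.7), StringTie, HISAT2 (2.2.1) and Trimmomatic (0.38.0), and neither counting options nor a genome build are given in these sources. In the deposited table, log2 fold changes and their errors carry the unit score here because 1 line that names no gene has a stray value; it was left out. The deposited p-values served only as the authors' threshold; the deposited means of normalised counts (a signal) were used as given.

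CPM was count over library total. The whole table was fitted with edgeR 4.0.16 (R 4.3.3; quasi-likelihood test, TMM, filterByExpr with a minimum count of 10 and total of 15, Benjamini-Hochberg over 7244 features), with library size only, DESeq2 1.42.0, limma 3.58.1 (voom), other filters and the replicate block as alternatives. The fit was also run on simulated counts that had the same spread for all features, which is no check for transcripts as uneven as some of these. The members and lists were chosen with earlier results of these data known. Named transcripts were the 12 highest in the deletion, the 6 largest ratios, those with overlap, those with a deposited entry (the 12 highest), runs of 3 by number and the borders of the rule; the other named transcripts were chosen after their values were seen. Gene names come from the authors' table. No sequence is shown. P-values would measure only the spread between these cultures.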

Additional observations from a re-analysis of the deposited data

How the results depend on the processing

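The size of the set depended on the rule: 38 transcripts with 0.5 CPM added in place of 0.1, 282 with a ratio of at least 4, 23 with at least 16 and 53 with DESeq2 size factors, against 84. It was within 1.5 times of 84 with no addition (108), TMM scaling (57) and deletion means of at least 1 CPM (92) or 5 CPM (56). Leaving out 1 library gave 75 to 126. The median log2 fold change of 3.54 was 3.93 with library size only, where the median of all features was also 0.36 higher, and 3.45 to 3.76 when 1 library was left out. The number called higher was 77 to 84 over the alternative fits, which include DESeq2 and limma-voom, and that without overlap 79 to 83. The 77 came from 78 members tested with at least 1 CPM in 3 libraries, and the DESeq2 test called 80 of 82. MSTRG.5645.1 turned from 2.90 to -1.05 without deletion replicate 2, and ran up to 4.31 when another library was left out. Of the other named transcripts, MSTRG.2858.1, MSTRG.2545.1, MSTRG.4756.1 and MSTRG.4931.1 lost the edgeR call under some alternative. StringTie transcripts called higher numbered 361 to 507 and called lower 110 to 155 when 1 library was left out; with library size only they were 677 and 105, against 522 and 157, so the share of higher calls moved from 76.9% to 86.6%.

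With the replicate number as a block 82 of the 84 were called higher and the median was 3.60. The labels give same-numbered samples nothing in common but the number, and whether it marks a shared day or batch was not tested. Over all tested features the deviations of same-numbered libraries correlated at 0.05, 0.15 and 0.14 for replicates 1, 2 and 3. Each wild type library correlated best with the deletion library of its own number. Deletion replicate 1, however, correlated more with wild type replicate 3 (0.08) than with wild type replicate 1 (0.05). A single count was worth 0.0263 to 0.0296 CPM in the wild type libraries, which limits how low a level could be seen there.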
